A study of Mus musculus with 8 samples.

Results

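Messenger RNA levels of 50 genes for nucleolar ribosome biogenesis were compared in mouse bone marrow-derived macrophages, which are cells grown in culture from marrow precursors. The genes were taken by symbol from a table of 34432 gene rows, and all 50 were present in it. They were named as members of the pathway, and no threshold on their values was used. Ribosomes are assembled in the nucleolus, where RNA polymerase I transcribes the ribosomal RNA precursor. Small nucleolar ribonucleoproteins (snoRNPs) modify that precursor, box C/D particles by methylation and box H/ACA particles by pseudouridylation, and a large set of assembly factors then cuts and folds it into the small and large subunits. These genes are known as a growth programme that is high in dividing cells, and many of them are known targets of the transcription factor Myc.

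Cells were taken on day 7 of differentiation without further treatment, and polyadenylated RNA was sequenced. Controls (4 libraries) carried the Cre recombinase under the promoter of Vav, a gene of blood-forming cells, so recombination is not limited to macrophages. Double knockouts (4 libraries) were Cdk8 flox/flox with Vav-iCre and were null for Cdk19. The products of Cdk8 and Cdk19 are closely related kinases of Mediator, the complex between transcription factors and RNA polymerase II. The labels name no Cdk8 or Cdk19 allele for the controls and no driver for the loss of Cdk19. Effects of the kinases cannot be told apart in this design, since no group lacks only one of them.

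The reads counted over the gene rows numbered 17856715 to 21353207 per library. Values below are normalized read counts, that is, reads divided by the authors' size factor of each library. In controls 1 to 4, Cdk19 had values of 1299, 1295, 1530.3 and 1682, and double knockouts 1 to 4 had 396, 392, 361 and 342 (log2 fold change -1.95, SE 0.10, adjusted p = 2.95e-08). Cdk8 stood at 466, 449, 408 and 432 against 429, 309, 357 and 294, so the groups overlapped (log2 -0.35, SE 0.12, adjusted p = 0.0374). The gene total of Cdk8 includes exons outside the floxed part and does not check the deletion. Macrophage genes were abundant in every library: the lowest values were 92772 for Lyz2, 24168 for Csf1r and 21998 for Adgre1, which were lower in the double knockout, and 15181 for Cd68, which was higher. The double knockouts formed 2 pairs: the chi-square per gene was 7.93 between libraries 1 and 2 and 9.01 between 3 and 4, against 18.6 to 25.3 across the pairs. Controls ranged from 9.08 between libraries 2 and 3 to 36.2 between 1 and 4. Counts of genes are therefore also given with each pair averaged.

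The 50 ribosome biogenesis genes were lower or did not pass the test in the double knockout, and none of them was higher. All 50 passed the filter on low values. Of these, 20 were lower (40%), and 30 did not pass. Across all 11675 genes tested 46.6% were called: 23.8% lower and 22.9% higher. Among the 7158 tested genes whose mean over all libraries lay within the range of the 50 genes (331 to 10813), 26.0% were lower and 26.6% higher. The share of lower genes among the 50 was thus larger than in either background, and the share called in both directions together was not. None was higher by limma, edgeR or DESeq2, and at an unadjusted p under 0.05 in limma 1 was (Utp14a). With the double knockout pairs averaged, 18 of the 50 were lower and none was higher by limma, against 19.2% lower and 16.3% higher over all genes tested. In bulk RNA, fewer cells of a type and less RNA per cell cannot be told apart.

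The differences were small for most of the genes. Their median log2 fold change was -0.20, against 0.01 over all genes tested, and the values ran from -1.29 for Nop58 to 0.24 for Rrp9. The sign was negative for 40 of the 50 and positive for 10. Only Nop58, Dkc1 and Nop56 were called and lower by at least 2-fold, 3 of 50, no larger a share than the 7.20% of all genes tested. Of the 7158 tested genes with a mean within the range of the 50, 326 were, a smaller share than 3 of 50. The 4 control values and the 4 double knockout values did not overlap for 19 of the 50 (38%), close to the 42.9% of all genes tested. Over those 7158 genes the share was 48.3%. Of these 19, 18 were lower genes, and the other was Utp14a, which lay higher in the double knockout without passing the test. The plot of fold changes by role shows that the called genes are spread over all roles but lie thinly in the small subunit processome.

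**Figure D1:**
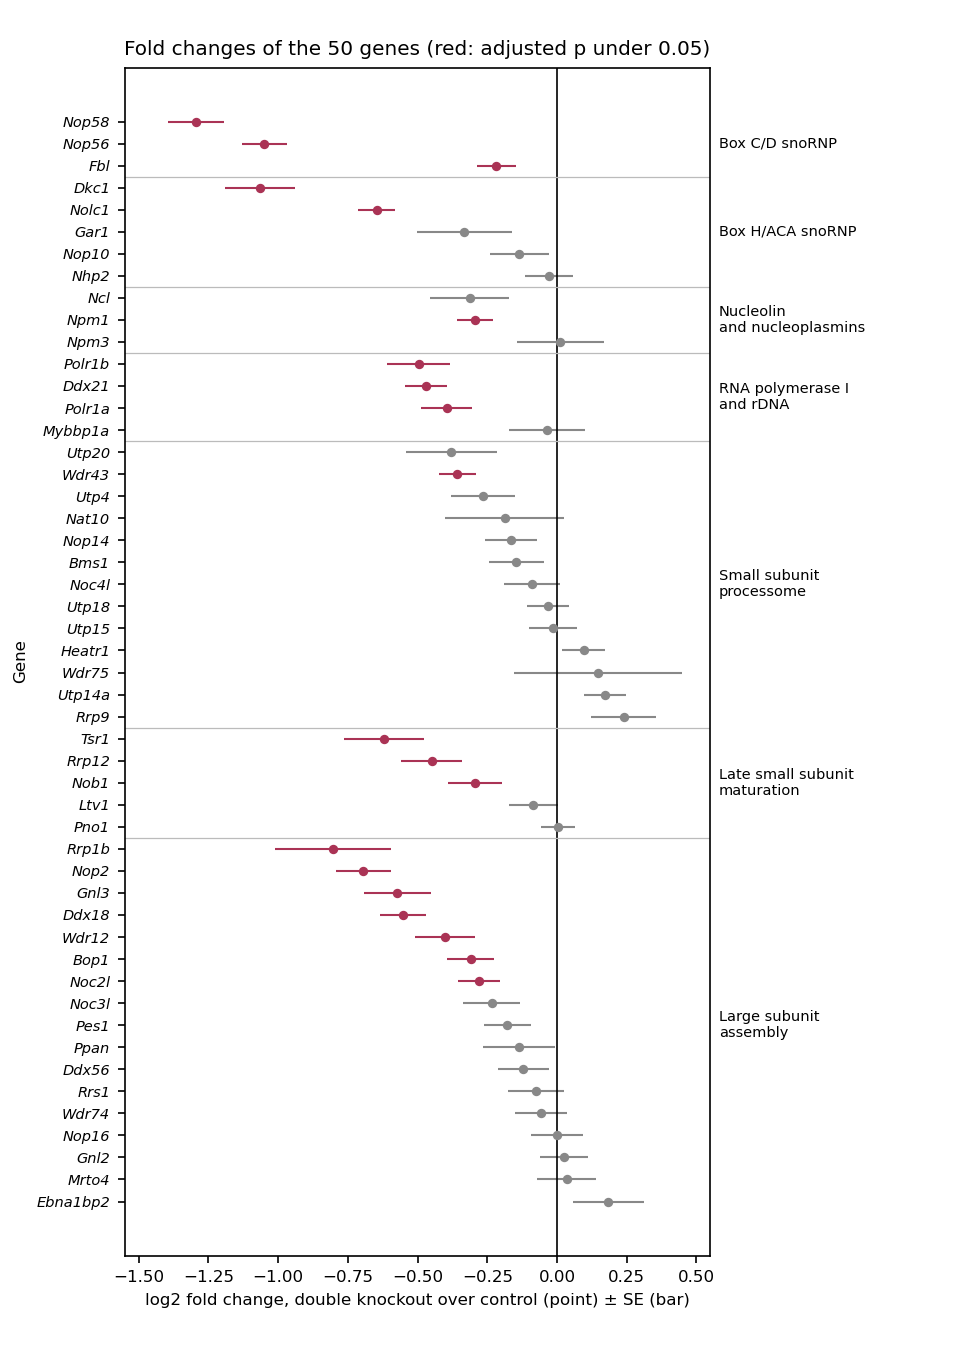
Log2 fold change of each of the 50 genes, double knockout over control, as a point with its standard error as a bar (4 libraries a group), grouped by role; red marks the 20 genes with an adjusted p under 0.05. Nop58, Nop56 and Dkc1 lie at or below -1.05, and no red point lies to the right of 0.

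As a group the 50 genes took a smaller share of the reads in each double knockout library. They took 0.373%, 0.379%, 0.372% and 0.358% of all reads counted over the gene rows in controls 1 to 4. In double knockouts 1 to 4 they took 0.288%, 0.290%, 0.290% and 0.306%. The lowest control thus lay above the highest double knockout. Summed by role, the normalized read counts did not overlap between the groups for box C/D, box H/ACA, RNA polymerase I, small subunit processome, late small subunit and large subunit genes. The sums of nucleolin and the nucleoplasmins overlapped, at 18640 to 24421 in controls and 15737 to 20314 in double knockouts.

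The box C/D snoRNP guides methylation of ribosomal RNA, and the transcripts of its 3 protein genes among the 50 were all lower. Nop56 and Nop58 are the paired scaffold proteins of the particle, and Fbl encodes fibrillarin, its methyltransferase. Nop58 (ENSMUSG00000026020, chromosome 1, 59684971 to 59719044, mm10) stood at 1478, 1671, 1602 and 1910.3 in controls 1 to 4. The double knockouts stood at 705, 759.9, 656 and 592. The groups lay far apart, and the 2.45-fold difference was the largest among the 50 genes (log2 -1.29, SE 0.10, adjusted p = 8.13e-07).

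Nop56 (ENSMUSG00000027405, chromosome 2, 130274430 to 130279313) had control values of 2387, 2782, 2304 and 2129. In the double knockouts it stood at 1144, 1163, 1181 and 1126, a narrow range far below the controls. The difference was 2.07-fold (log2 -1.05, SE 0.08, adjusted p = 8.27e-07). Fbl (ENSMUSG00000046865, chromosome 7, 28169710 to 28179269) stood at 2133, 2257, 1966 and 1936 in controls and at 1776, 1653, 1886 and 1812 in double knockouts. Its groups lay close together without overlapping, and its difference was 1.16-fold (log2 -0.22, SE 0.07, adjusted p = 0.0258). The call for Fbl did not hold with the double knockout pairs averaged (adjusted p = 0.0938). A stretch of 690 bases of the Fbl transcript is 99.6% identical to a transcript of Tulp4, so its level is uncertain.

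Because the 3 encoded proteins sit in one particle, the ratios of their transcripts within each library were also taken; these do not depend on the size factors. The ratio of Fbl to Nop56 was 0.811 to 0.909 in controls and 1.42 to 1.61 in double knockouts. The ratio of Fbl to Nop58 was 1.01 to 1.44 and 2.18 to 3.06. Neither ratio overlapped between the groups, whereas that of Nop56 to Nop58 did, at 1.11 to 1.67 against 1.53 to 1.90. The scaffold genes were thus lower relative to the measured level of the methyltransferase gene in each double knockout library. Both of these ratios rest on Fbl, whose level is uncertain because of the stretch it shares with Tulp4. Snu13, the gene of a further core protein of this particle, was among the other pathway genes and is named after its value was seen (log2 -0.33, SE 0.08, adjusted p = 0.00404).

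In the box H/ACA snoRNP, which guides pseudouridylation, 2 of 5 genes were lower. Dkc1 encodes dyskerin, the pseudouridine synthase, and Gar1, Nhp2 and Nop10 encode the other core proteins. Nolc1 encodes a chaperone of snoRNPs in the nucleolus and is counted with them here. Dkc1 (ENSMUSG00000031403, chromosome X, 75095854 to 75109777) stood at 816, 919, 1043 and 668 in controls and at 423, 419, 409 and 375 in double knockouts. Controls spread widely and double knockouts did not, and the groups did not overlap (2.09-fold lower, log2 -1.06, SE 0.13, adjusted p = 3.13e-05).

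Nolc1 stood at 1499.7, 1636, 1683 and 1605 in controls. Its double knockout values were 1065, 1016, 999 and 1018. Both groups were tight and well apart (1.57-fold lower, log2 -0.65, SE 0.07, adjusted p = 8.13e-06). Gar1 stood at 721, 532, 588 and 379.9 against 365, 448, 437 and 476, with control 4 inside the double knockout range. It did not pass the test (log2 -0.33, SE 0.17, adjusted p = 0.13), and without control 4 it did (log2 -0.50, adjusted p = 0.00827). Nhp2 (log2 -0.03, SE 0.09) and Nop10 (log2 -0.13, SE 0.11) overlapped between the groups.

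Transcripts of the core protein genes of this particle also shifted against each other. The ratio of Dkc1 to Nhp2 was 0.545 to 0.805 in controls and 0.274 to 0.361 in double knockouts. Relative to Nop10 it was 0.916 to 1.44 and 0.532 to 0.621. Neither overlapped, while the ratios of Gar1, Nhp2 and Nop10 among themselves and of Dkc1 to Gar1 did. Of the core genes of both particles, the enzyme gene Dkc1 was the lowest of its particle relative to control. The enzyme gene Fbl was the least reduced of its own by its measured level, which is uncertain.

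**Figure D2:**
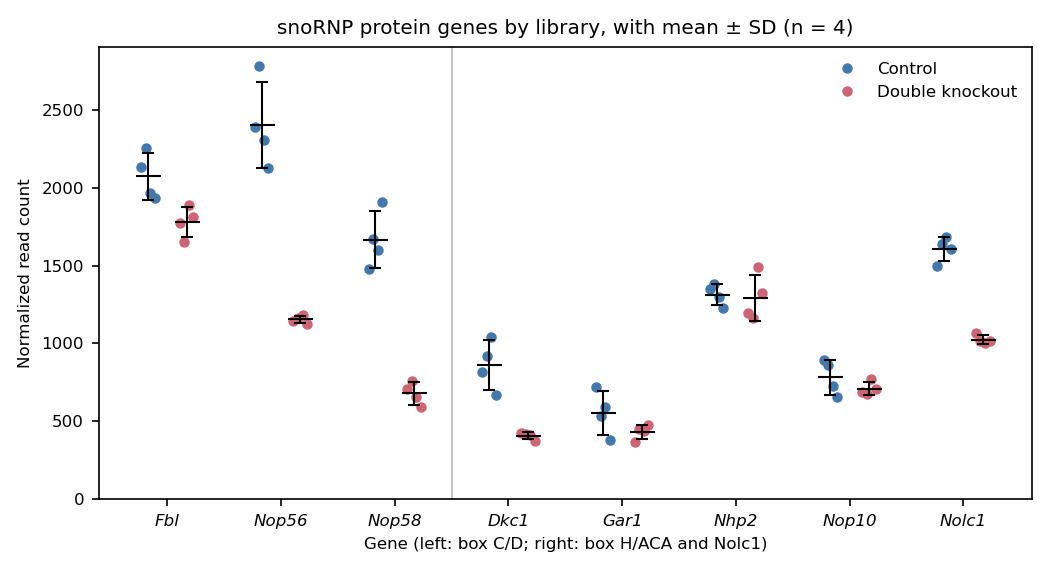
Normalized read counts of the box C/D genes (left) and of the box H/ACA genes with Nolc1 (right), with 1 point per library and black marks for mean and SD (n = 4 a group). Nop56, Nop58, Dkc1 and Nolc1 show 2 separate clusters, while Gar1, Nhp2 and Nop10 overlap.

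**Figure D3:**
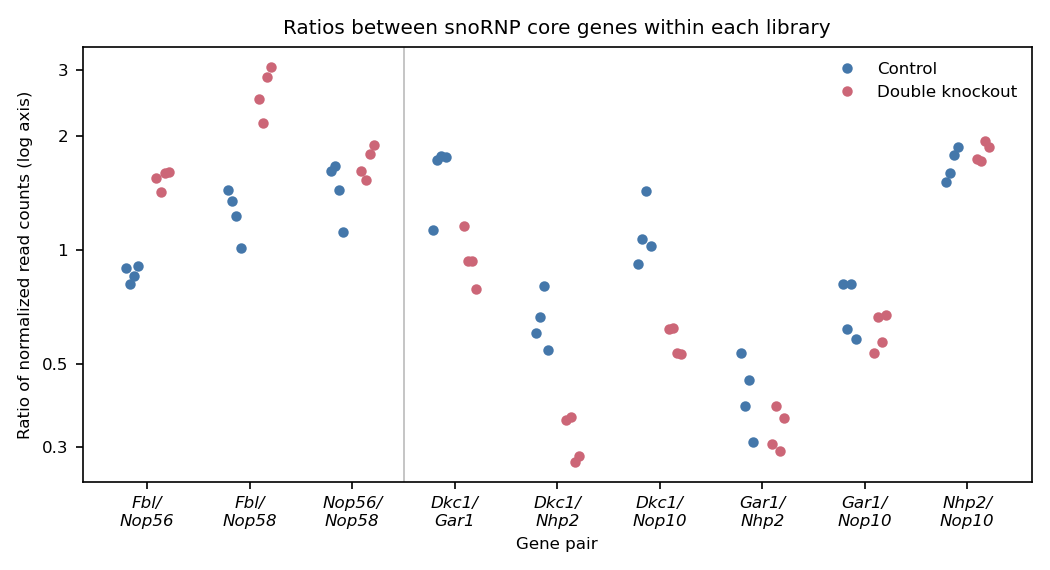
Ratio of the normalized read counts of pairs of snoRNP core genes within each library, on a log axis, with 1 point per library. The ratio of Fbl to Nop56 is 0.811 to 0.909 in controls and 1.42 to 1.61 in double knockouts, whereas ratios such as Nhp2 to Nop10 overlap. Ratios with Fbl share the uncertainty of its level.

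Bases just before the annotated starts of the genes lower by at least 2-fold are shown because these 3 genes carried the largest differences. Each stretch holds 100 bases of the RefSeq promoter window (build GRCm38.p6, plus strand for each gene), ending before the earliest annotated start: chr2:130274312-130274411 for Nop56, chr1:59684871-59684970 for Nop58 and chrX:75095754-75095853 for Dkc1. Capitals mark the reverse of the CCAAT box (ATTGG), which was the only match to the motifs searched in these stretches. In the full windows of 300 bases, Dkc1 also held CCAAT and Nop58 held TCGCGA, another motif searched, on either strand. Those matches lay outside the bases shown.
Nop56: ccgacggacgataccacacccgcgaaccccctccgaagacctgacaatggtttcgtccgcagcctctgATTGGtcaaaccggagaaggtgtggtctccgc
Nop58: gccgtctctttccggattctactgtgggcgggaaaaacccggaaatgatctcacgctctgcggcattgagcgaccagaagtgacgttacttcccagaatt
Dkc1: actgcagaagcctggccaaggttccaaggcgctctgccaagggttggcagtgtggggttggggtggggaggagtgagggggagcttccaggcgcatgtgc
No stretch of CACGTG, the E-box letters that Myc with Max is known to bind, lay in these 3 stretches, which says only that the letters are not in these windows.

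Nucleolin and the nucleoplasmins are the abundant histone and RNA chaperones of the nucleolus, and 1 of the 3 was lower. Npm1, which encodes nucleophosmin, stood at 10229.8, 10008, 9948 and 9139 in controls and at 7383, 7837, 8329 and 8572 in double knockouts. The groups did not overlap (1.23-fold lower, log2 -0.29, SE 0.06, adjusted p = 0.00293). Ncl, which encodes nucleolin, stood at 13601, 13441, 11802 and 9130.3 against 7905, 8786, 10667 and 11169.7.

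Control 4 was the lowest control for Ncl and lay inside the double knockout range, and the test was not passed (log2 -0.31, SE 0.14, adjusted p = 0.093). Without control 4 the adjusted p was 0.0126. Npm3, a smaller relative of Npm1, stood at 591, 619.7, 465 and 370.3 in controls and at 449.5, 480.5, 527 and 573 in double knockouts (log2 0.01, SE 0.16, adjusted p = 0.957). For all 3 genes control 4 was the lowest control, and double knockouts 3 and 4 both lay above 1 and 2. Over the 50 genes, double knockouts 3 and 4 both lay above 1 and 2 for 13 and both below for 10, shares of 26% and 20% that compare with 23.9% and 22.1% of all genes tested.

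Genes for the synthesis of the ribosomal RNA precursor were lower in 3 of 4 cases. Polr1a and Polr1b encode the large catalytic subunits of RNA polymerase I. Ddx21 encodes an RNA helicase known to act on ribosomal RNA transcription and processing, and Mybbp1a encodes a nucleolar regulator of RNA polymerase I transcription. Polr1b stood at 419, 529, 403 and 462 in controls and at 334, 290.5, 338 and 316 in double knockouts. No double knockout reached the lowest control (1.41-fold lower, log2 -0.50, SE 0.11, adjusted p = 0.00332).

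Polr1a stood at 1356, 1799, 1424 and 1651 against 1190.2, 1164, 1247 and 1107, also without overlap (1.32-fold lower, log2 -0.40, SE 0.09, adjusted p = 0.0043). The ratio of Polr1a to Polr1b overlapped between the groups, at 3.24 to 3.57 and 3.51 to 4.01. Ddx21 had control values of 2898, 3189, 3387 and 3698 and double knockout values of 2305, 2504, 2385 and 2284. The groups were separate (1.39-fold lower, log2 -0.47, SE 0.08, adjusted p = 0.000382). Mybbp1a varied widely among double knockouts, from 2217 to 3679, around a mean close to that of controls (log2 -0.04, SE 0.14, adjusted p = 0.852).

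The small subunit processome, the large early particle that folds and cuts the precursor around the U3 snoRNA, had 1 of 13 genes lower (7.69%) and a median log2 fold change of -0.09. Wdr43, a subunit of its first-binding UtpA complex, stood at 1483, 1444, 1452 and 1609 in controls and at 1124, 1202, 1208 and 1133 in double knockouts. The groups were tight and separate (1.28-fold lower, log2 -0.36, SE 0.07, adjusted p = 0.000955). None of the other 4 UtpA genes measured here passed the test. Utp4 stood at 488, 648, 604 and 638 against 514, 546, 485 and 427, where control 1 lay among the double knockouts (log2 -0.27, SE 0.11, adjusted p = 0.0759). Utp15 and Heatr1 had log2 fold changes of -0.01 and 0.10, with SEs of 0.09 and 0.08.

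Utp20, which encodes a very large scaffold protein, had the largest difference of this role without passing the test. It stood at 1049, 826, 1034 and 775 in controls and at 909.7, 778, 656 and 521 in double knockouts. Values overlapped and spread in both groups (log2 -0.38, SE 0.16, adjusted p = 0.0784). Wdr75, the remaining UtpA gene, had the widest spread among the controls of all 50 genes, with a coefficient of variation of 39.3%. Its log2 fold change of 0.15 had an SE of 0.30, so no difference was detectable at this spread.

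The 4 genes of this role with positive values were Rrp9, a U3 snoRNP protein gene (log2 0.24, SE 0.12, adjusted p = 0.118), Utp14a, a processing factor gene (log2 0.17, SE 0.07, adjusted p = 0.0767), Wdr75 and Heatr1. Utp14a stood at 597 to 649 in controls and at 688 to 734 in double knockouts. The groups did not overlap, and the adjusted p was 0.0325 with quantile normalization in place of the size factors. Of the rest, Nat10, the RNA cytidine acetyltransferase gene, Nop14, Bms1, which encodes a GTPase, Noc4l and Utp18 had log2 fold changes between -0.19 and -0.03 and overlapping groups.

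Among the genes for late maturation of the small subunit, 3 of 5 were lower. Tsr1 encodes a factor that sits on the late pre-40S particle, Rrp12 a repeat protein that accompanies it, and Nob1 the endonuclease that makes the final cut of 18S ribosomal RNA. Tsr1 stood at 824, 972, 1029.8 and 1266 in controls and at 718, 741, 515 and 679 in double knockouts. Both groups were broad and did not overlap (1.54-fold lower, log2 -0.62, SE 0.14, adjusted p = 0.00386). Its exons overlap those of Srr on the other strand by 1240 bases. The use of strand in counting is not stated, so reads of these genes cannot be told apart there, and Srr itself had a log2 fold change of -0.07 (adjusted p = 0.759).

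Rrp12 stood at 545, 587, 566 and 643 against 416, 461, 359 and 485, without overlap (1.36-fold lower, log2 -0.45, SE 0.11, adjusted p = 0.00552). Nob1 stood at 456, 497, 481 and 409.8 in controls and at 375, 391, 350.1 and 384 in double knockouts. The groups lay next to each other (1.23-fold lower, log2 -0.29, SE 0.10, adjusted p = 0.0257), and the call did not hold with the double knockout pairs averaged (adjusted p = 0.0859). Pno1, which encodes the partner that holds Nob1 in check, was nearly level at 1473 ± 44.5 and 1477 ± 30.0 (SD, n = 4). Ltv1, an assembly factor gene, had a log2 fold change of -0.08 (SE 0.09).

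Large subunit assembly was the largest role, with 7 of 17 genes lower and a median log2 fold change of -0.18. Nop2 encodes a methyltransferase of 28S ribosomal RNA, and Gnl3 encodes the GTPase nucleostemin. Nop2 stood at 1067, 1121, 1089.8 and 1163 in controls and at 739.8, 748, 555 and 719 in double knockouts. Every double knockout lay far below the controls, library 3 the lowest (1.62-fold lower, log2 -0.69, SE 0.10, adjusted p = 0.00015). Gnl3 stood at 787, 795, 780.1 and 641 against 588, 444, 436 and 560.3. Its groups did not overlap, although control 4 lay apart from the other controls (1.49-fold lower, log2 -0.57, SE 0.12, adjusted p = 0.00223).

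Rrp1b, which encodes a nucleolar protein of large subunit processing, had the largest fold change of this role and the widest spread among double knockouts of all 50 genes, with a coefficient of variation of 37.6%. Controls stood at 378, 384, 443 and 451. Double knockouts stood at 249, 379, 187 and 176, so double knockout 2 lay among the controls and the others well below (1.74-fold lower, log2 -0.80, SE 0.21, adjusted p = 0.00832). Ddx18, an RNA helicase gene, was lower by 1.47-fold (log2 -0.55, SE 0.08, adjusted p = 0.000188).

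Pes1, Bop1 and Wdr12 encode the 3 proteins of the PeBoW complex, which is needed to process the large subunit precursor. Bop1 (log2 -0.31, SE 0.09, adjusted p = 0.0107) and Wdr12 (log2 -0.40, SE 0.11, adjusted p = 0.00962) were lower. A stretch of 1276 bases of the Wdr12 transcript is 93.9% identical to a transcript of Pms1. Shorter stretches resemble transcripts of many other genes, so the level of Wdr12 is uncertain. Pes1 did not pass the test (log2 -0.18, SE 0.08, adjusted p = 0.103). All 3 ratios within the complex overlapped between the groups. That of Pes1 to Wdr12 was 3.48 to 4.41 in controls and 4.92, 4.59, 4.58 and 3.70 in double knockouts 1 to 4, so only double knockout 4 lay within the control range. Bop1 shares 50 exonic bases with Mroh1 on the other strand, which was higher in the double knockout (log2 1.21, adjusted p = 3.46e-05). Noc2l, an assembly factor gene, was also lower (log2 -0.28, SE 0.08, adjusted p = 0.00986), with 598 exonic bases shared with Samd11 on the other strand.

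The other large subunit genes did not pass the test. Noc3l, Ppan, Ddx56, Rrs1 and Wdr74 had log2 fold changes from -0.23 to -0.06, and Nop16, Gnl2, Mrto4 and Ebna1bp2 from 0.00 to 0.18. All are assembly factor genes of the pre-60S particle, Ddx56 an RNA helicase and Gnl2 a GTPase among them. Their groups overlapped in every case. The map of values by library shows these genes near the control mean beside the blue block of Nop58, Nop56, Dkc1 and Nolc1.

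**Figure D4:**
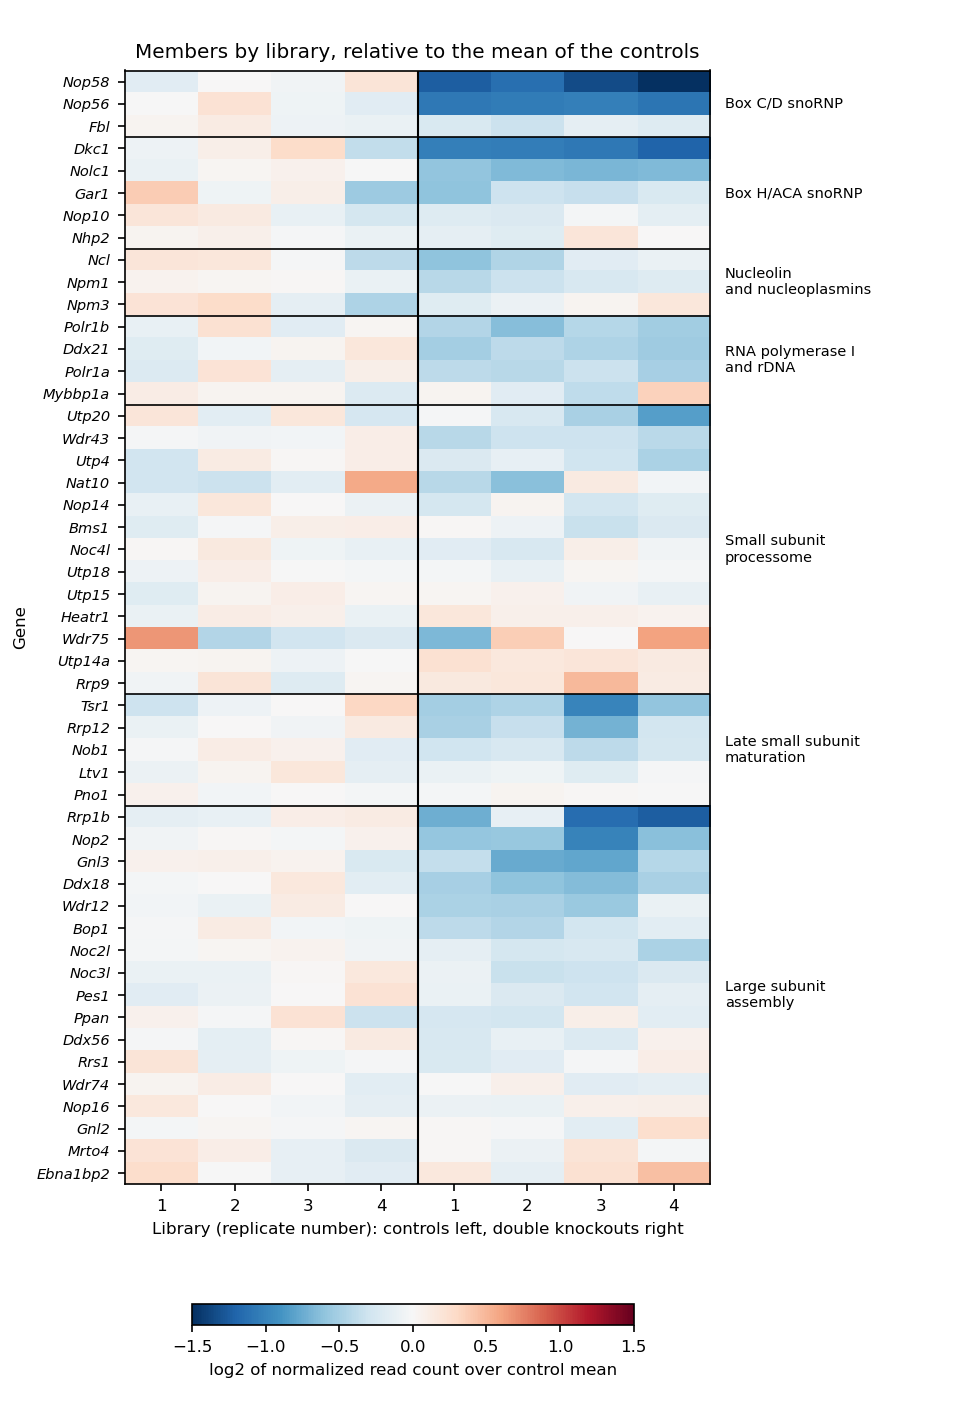
Log2 of each library's normalized read count over the mean of the controls for the 50 genes, ordered by role and fold change, with controls 1 to 4 left of the line and double knockouts 1 to 4 right of it. Nop58, Nop56, Dkc1, Nolc1 and Nop2 are blue in all 4 double knockouts, while Rrp1b is blue in libraries 1, 3 and 4 only.

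Spread between replicates was alike in the groups, with a median coefficient of variation of 9.31% in controls and 9.74% in double knockouts over the 50 genes. Levels can be compared between genes only per length, and here per kilobase of the principal transcript, as an approximation. On that scale Npm1 was highest in both groups (6020.2 ± 292 per kilobase in controls and 4917 ± 324 in double knockouts), followed by Fbl (1732 ± 125 and 1488 ± 81.0). Fbl and Ncl (1462 ± 253) lay within their spread of each other in controls. The lengths used were 1197 bases for Fbl and 8202 for Ncl, and the order of genes depends on the transcript chosen. Nop56 went from the fourth place in controls to place 11 in double knockouts, Nop58 from place 7 to 18 and Dkc1 from place 30 to 42.

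Some of the 50 genes also carry small nucleolar RNA genes within them, which is a known arrangement in this pathway. Annotated snoRNA genes, 23 in all, lie inside 8 of the 50, with 5 in Nop56 and 4 in Nop58. Wdr43, Gnl3 and Ncl hold 3 each, Tsr1 and Ppan 2 each, and Dkc1 holds 1. Of the 8, 6 were lower (75%), and of the other 42, 14 were lower (33.3%), where 23.8% of all genes tested were. The difference between these shares was not tested. The levels of the snoRNAs themselves were not analysed here.

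The other genes of the pathway, from a longer list drawn up from general knowledge of ribosome assembly, were called in both directions. The table held 139 such genes. Those tested numbered 137, of which 31 were lower (22.6%) and 18 higher (13.1%), with a median log2 fold change of -0.04. The share of lower genes is near the 23.8% of all genes tested, and that of higher genes is under the 22.9%. With the double knockout pairs averaged only 6 were higher, and without control 3, double knockout 1, double knockout 3 or double knockout 4 the count of higher genes was 9, 10, 9 and 11. By role, 4 of 14 further RNA polymerase I genes were lower and 3 higher. The figures were 7 and 6 of 41 small subunit genes, 13 and 6 of 50 large subunit genes, 2 and 1 of 9 genes for snoRNP assembly, and 5 and 2 of 23 exosome and nuclease genes.

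Genes with the smallest adjusted p among the lower ones were Ddx54, an RNA helicase gene (1974 ± 109 and 1250.2 ± 62.6, log2 -0.66, adjusted p = 9.46e-06), Nop9 (log2 -0.68, adjusted p = 0.000182), Mak16 (log2 -0.46, adjusted p = 0.000417) and Ubtf. Ubtf encodes the upstream binding factor of ribosomal DNA (2678 ± 76.2 and 2082 ± 109.5, log2 -0.36, adjusted p = 0.000441). Those with the smallest adjusted p among the higher ones were Sbds, Fcf1, Polr1h and Rrp36. Sbds encodes the factor that helps release Eif6 from the 60S subunit in the cytoplasm, and it stood at 1023 ± 116 and 1667 ± 118 (log2 0.71, adjusted p = 6.03e-05). Fcf1 (log2 0.38, adjusted p = 0.00232) and Rrp36 (log2 0.49, adjusted p = 0.0048) act in the small subunit processome, and Polr1h is a small subunit of RNA polymerase I (log2 0.52, adjusted p = 0.00381).

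**Figure D5:**
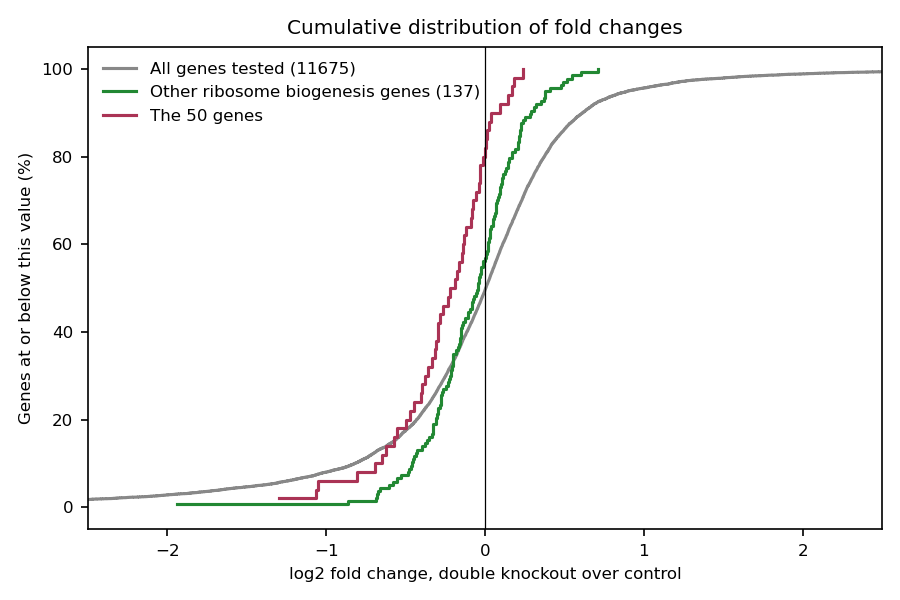
Share of genes at or below each log2 fold change for the 50 genes, the 137 other ribosome biogenesis genes tested and all 11675 genes tested. The curve of the 50 genes lies left of the others around the middle (medians -0.20, -0.04 and 0.01), while the curve of all genes reaches further out at both ends.

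Promoter sequences were matched for 44 of the 50 genes by symbol, in 48 windows from RefSeq (GRCm38.p6) that run from 250 bases before to 50 bases after a gene's start. The letters CACGTG, which read the same on both strands, were present in 10 of the 48 windows (20.8%) and in 7.15% of all 32851 windows. Of the 16 matched lower genes 3 held them, and of the 28 matched genes that did not pass the test 7 did. Nop58, Nop56 and Dkc1, the genes lower by at least 2-fold, were not among those with a match. The 10 matches lay within 60 bases of the start, and 30 bases around each are shown 5′ to 3′ on the gene's strand, with CACGTG in capitals. Nop2, Tsr1 and Wdr43 are the lower genes among them.
Nop2 (chr6:125131811-125131840, plus strand): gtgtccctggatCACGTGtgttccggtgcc
Tsr1 (chr11:74898092-74898121, plus strand): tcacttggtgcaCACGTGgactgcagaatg
Wdr43 (chr17:71616220-71616249, plus strand): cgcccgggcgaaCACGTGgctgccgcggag
Ltv1 (chr10:13193092-13193121, minus strand): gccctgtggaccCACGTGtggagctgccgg
Mybbp1a (chr11:72441347-72441376, plus strand): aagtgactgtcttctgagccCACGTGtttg
Pes1 (chr11:3963965-3963994, plus strand): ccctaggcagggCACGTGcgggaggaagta
Pno1 (chr11:17211540-17211569, minus strand): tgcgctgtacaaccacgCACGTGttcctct
Utp18 (chr11:93885769-93885798, minus strand): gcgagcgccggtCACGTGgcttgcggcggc
Utp20 (chr10:88826765-88826794, minus strand): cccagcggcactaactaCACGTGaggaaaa
Utp4 (chr8:106893643-106893672, plus strand): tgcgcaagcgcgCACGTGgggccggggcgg
The other motifs were also searched on both strands. CCAAT was present in 33.3% of the 48 windows and 37.4% of all windows, TCGCGA in 8.33% and 2.5%, and GCATGC in 8.33% and 7.93%. A match is a description of the letters and not of a bound site.

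Myc itself, whose protein with Max binds the E-box letters, stood at 746, 803, 817 and 666 in controls and at 277, 309, 340.1 and 416 in double knockouts. The groups were well apart (2.28-fold lower, log2 -1.19, SE 0.13, adjusted p = 1.42e-05). Max was higher, at 2185 ± 102 and 2687 ± 231 (log2 0.30, SE 0.07, adjusted p = 0.00583). Genes of the cell cycle were lower, and their part in the differences of the 50 genes was not tested. All 15 mitosis genes listed were lower with a median log2 fold change of -2.78, as were all 15 S phase genes, with values from -3.83 to -0.86. The summed normalized read count of the mitosis genes was 21562 to 23423 in controls and 3011 to 3266 in double knockouts.

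Markers of other cells moved in the same direction for some lists. Monocyte markers were lower for 6 of 10 genes, and their sum was 6409 to 6762 in controls and 1796.0 to 2958 in double knockouts. Neutrophil markers were lower for 10 of 13 tested, with sums of 2702 to 4483 and 1335 to 1619. S100a8 and S100a9 of the neutrophil list were not at 0 in any library. Of 15 macrophage markers 9 were higher and 5 lower. T and B cell markers passed the filter for 3 of 10, with 1 lower and 1 higher. Cd79b was lower (log2 -1.38, adjusted p = 6.34e-05), and Cd4 was higher (log2 2.53, adjusted p = 1.93e-05). Cd3e, Cd3g and Trac stood at 0 in all libraries. Erythroid markers passed for none of 8, with Hba-a1, Hba-a2 and Hbb-bs at 0. Progenitor markers passed for 4 of 7, with 1 lower and 1 higher. The part of these cell markers in the differences of the ribosome biogenesis genes was not tested.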

How the data were processed

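The 8 libraries of polyadenylated RNA were sequenced as read pairs, per the labels' protocols. Quantification was by Salmon 1.4.0 and normalization by DESeq2, with build mm10, per the submitters' processing notes. Neither the annotation release nor the use of strand is given in the sources used. The deposited values are a signal: whole reads divided by 1 size factor per library (0.901 to 1.04). Undoing that division gave whole numbers for 100% of the values in each library, within 0.01. These recovered reads, summed over the gene rows, numbered 17856715 to 21353207 per library.

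The 11675 genes that reached a value of 10 in 4 or more libraries were tested. The test was limma 3.58.1 in R 4.3.3 on log2(value + 1), two-sided, with its trend and robust options and genotype alone in the model. Adjustment was by Benjamini and Hochberg over these genes at a threshold of 0.05, and fold changes on that scale understate changes of low genes. Alternatives were other pseudocounts, filters and normalizations, the count models of edgeR 4.0.16 and DESeq2 1.42.0 on recovered reads, a replicate block, averaged library pairs and leaving out each library.

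Groups follow the genotype named in each sample's title. Nothing in the labels tells whether replicates were separate animals or cultures. The p-values therefore set the difference between groups only against the spread among these samples, and that spread may be technical. The genes, lists, motifs and tests were chosen with earlier results of these data known, though by no threshold on values. Values per library are given for Myc, Cdk8, Cdk19 and up to 3 genes per role with the largest absolute log2 fold change. Of the other pathway genes, the 4 with the smallest adjusted p in each direction are named. Further genes are named where a call changes in an alternative or a library lies apart.

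Coordinates and gene overlaps are from the GENCODE annotation of mm10. Pseudogene copies at least 90% identical over at least 200 bases exist for 17 of the 50 genes and those with a value held at most 0.122% of the reads of gene and copies together. Of 36 such copies 3, of Nop56 and Ddx18, had no value here. Promoter windows of Bop1, Fbl, Gnl2, Npm1, Rrp12 and Rrs1 were not used here.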

Additional observations from a re-analysis of the deposited data

Results flagged for a closer look

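In 6 of the 122 groups of 4 libraries examined, 1 library lay apart from the other 3 by more than Dixon's 95% critical value for the gap over the group's range. Chance gives about 1 in 20 such groups. Wdr75 stood at 914.0 in control 1, against 424 to 497 in the other controls, and Nat10 at 792 (791.7) in control 4, against 426 to 476. Gnl3 stood at 641.3 in control 4, below the other controls at 780.1 to 795. Among double knockouts, Nop2 stood at 555.2 in library 3, below 719 to 748 in the others, and Rrp9 at 531.2 in library 3, above 411 to 425. Wdr12 stood at 764.0 in double knockout 4, above 553 to 587 in the others and above control 2. Nop2, Gnl3 and Wdr12 were called lower in each of the 20 alternatives, including those without the library named.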

How the results depend on the processing

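Over 20 alternatives, 15 to 22 of the 50 genes were lower, and their median log2 fold change was -0.23 to -0.16. The share of all genes tested that were lower ran from 15.4% with no filter on low values to 25.2% with a stricter filter. Of the 20 lower genes, 15 remained lower in every alternative: Ddx18, Ddx21, Dkc1, Gnl3, Nolc1, Nop2, Nop56, Nop58, Polr1a, Polr1b, Rrp12, Rrp1b, Tsr1, Wdr12 and Wdr43. Fbl and Nob1 each missed the threshold in 7 alternatives, with adjusted p up to 0.124 and 0.149. Npm1, Bop1 and Noc2l missed it in 1, at adjusted p = 0.0551, 0.069 and 0.0603, when controls 2 and 3 were averaged along with the double knockout pairs, an alternative chosen after seeing the data. There 15 of the 50 were lower, against 2045 of all genes (17.5%), and 1706 of all genes were higher. The count of higher genes among the 50 was 1 without the trend and robust options (Utp14a) and 2 with quantile normalization (Utp14a and Rrp9), which moved the median of all genes to 0.05. Gar1, Ncl, Utp4, Utp20 and Pes1 were lower in at least 1 alternative. Pairs of a gene and an alternative numbered 1000, called genes included. In 39 of them the sign changed while the gene was uncalled in both the main test and the alternative.

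The count of 18 higher genes among the other pathway genes was less stable: 11 with no filter on low values, 9 with the replicate block, 6 with double knockout pairs averaged and 5 with controls 2 and 3 averaged as well. Leaving out 1 library gave 9 to 17, with 9 without control 3 or without double knockout 3, 10 without double knockout 1 and 11 without double knockout 4. No pairing by replicate number was visible: same-numbered libraries had correlations of -0.05, 0.03, -0.04 and -0.04 in their deviations from the group means. These values cannot show that the samples were unpaired. With the replicate block 19 of the 50 genes were lower, against 20.8% lower and 19% higher of all genes tested. It called 4649 of all genes in both directions together. The causes of these changes were not tested.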
